A study of Saccharomyces cerevisiae with 30 samples.

Results

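The Hsp90 system of budding yeast was followed here through 9 genes of the 5890 listed, taken by exact name from every deposited table. They are the Hsp90 paralogs HSP82 and HSC82 and the genes of 7 co-chaperones, AHA1, HCH1, STI1, CPR6, CPR7, SBA1 and CDC37. Hsp90 is an ATP-driven dimeric chaperone of the cytosol that completes the folding of client proteins, many of them kinases and transcription factors. Clients pass to it from Hsp70, and co-chaperones time its cycle. Sti1 joins Hsp70 to Hsp90 and slows ATP hydrolysis, Aha1 and its smaller relative Hch1 speed it, and Sba1, the yeast p23, holds the closed state. Cdc37 delivers kinases, and the cyclophilins Cpr6 and Cpr7 bind the Hsp90 tail through tetratricopeptide repeats. Yeast makes Hsc82 at a high steady level, while Hsp82 is known as the heat-inducible copy, and heat shock factor 1 (Hsf1) is the transcription factor best known for switching such genes on.

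The libraries came from proximity-specific ribosome profiling, in which a biotin ligase (BirA) on an organelle tags nearby ribosomes and streptavidin collects them. Every strain carried Srp72, a protein of the signal recognition particle, fused to an auxin-inducible degron (srp72-AID-HA), the auxin receptor OsTIR1, and an AVI acceptor tag on the ribosomal proteins RPL16a and RPL16b. The ligase was SEC63-mVenus-BirA or BirA-mVenus-UBC6 (from the SEC63 promoter) on the endoplasmic reticulum (ER), and TOM20-mVenus-BirA or OM45-mVenus-BirA on mitochondria. Cells grew in synthetic medium low in biotin, received auxin at 500 µM for 0, 15, 30 or 60 min and then 10 nM biotin. With cycloheximide, the Sec63 and Ubc6 baits were sampled at all 4 times and the Tom20 and Om45 baits at 0 and 30 min only. A further Sec63 series, without cycloheximide, had 0, 30 and 60 min. Cycloheximide was added at 100 µg/ml for 2 min with a biotin pulse of 2 min, and the series without it had a pulse of 1 min. Bait and strain differ together for Tom20, which was tagged in W303, while the remaining baits sat in S288C derivatives. All groups had the degron strain, and none of the samples analysed was an auxin treatment of cells without it, so auxin itself and the loss of Srp72 cannot be told apart.

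Each of the 15 pairs held an input (footprints of all ribosomes) and a pulldown, 30 libraries in all, with 1 library per series, time and fraction. The 5 series are therefore the unit that repeats, and n below is a number of series. Inputs held 2.04 M to 113 M footprints in listed genes (median 22.0 M) and pulldowns 4.86 M to 103 M. The smallest was the Ubc6 input at 0 min. MET17, deleted as met15 in S288C derivatives and intact in W303, had 0 to 4 counts in the 4 S288C series and 10169 to 37689 in the Tom20 libraries. The 6 ER markers were enriched in ER pulldowns at 0 min (list medians of 2.35 to 4.33 log2 units) and the 6 mitochondrial markers in mitochondrial ones (3.75 to 4.02). Tests were edgeR quasi-likelihood fits over all genes with Benjamini-Hochberg adjustment, and a gene was called at an adjusted p below 0.05. Counts are shares of a library: more footprints on a message and fewer on the rest cannot be told apart, nor can more responding cells and a larger response per cell.

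All 9 genes passed the count filter in every fit. In the R64 assembly HSP82 (YPL240C) spans chromosome XVI, 96496 to 98625, and HSC82 (YMR186W) chromosome XIII, 632355 to 634472. Their coding sequences are 2130 and 2118 bp long and near-identical. Dividing the deposited counts by the deposited RPKM (reads per kilobase and library size) gives the length that the scaling used. That length was 82.1% of the annotated one for HSP82 and 82.0% for HSC82, against 99.6% to 100.1% for the 7 co-chaperone genes and a median of 99.98% over 5700 genes. It was under 90% in 566 genes (9.93%), and 36.1% for SSA1, a gene with a near-identical copy. How footprints matching both Hsp90 genes were counted is not given in the sources used here, so the split between HSP82 and HSC82 is uncertain, and their sum is given beside it.

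Before auxin, HSC82 had the densest footprints of the system and CPR7 the sparsest. Per length, the 5 inputs at 0 min gave HSC82 a median of 2965 RPKM (1504 to 3386) and HSP82 one of 659 RPKM (514 to 849). STI1 had 645 RPKM (472 to 732), SBA1 625 (520 to 763) and CPR6 528 (503 to 635). HCH1 followed at 313 RPKM (274 to 413), AHA1 at 216 (139 to 284), CDC37 at 105 (49.9 to 119) and CPR7 at 37.5 (14.8 to 46.7). The Ubc6 input set the low end of every range. As a share of footprints in listed genes, however, it was the highest of the 5 inputs for HSP82, STI1, SBA1, CPR6 and HCH1. The library size behind the deposited RPKM was thus not the total of listed genes. These ranges therefore do not give the spread in level between series, while the order within a series does not depend on that scaling. HSC82 over HSP82, CPR6 over HCH1, HCH1 over AHA1, AHA1 over CDC37 and CDC37 over CPR7 held within each of the 5 series. HSP82, STI1, SBA1 and CPR6 lay close together: HSP82 exceeded STI1 in 4 of 5 series and SBA1 exceeded CPR6 in 4, but STI1 exceeded SBA1 in 1. The related pair of Hsp90 ATPase activators was thus ordered with the smaller Hch1 above Aha1, and the cyclophilin pair with Cpr6 above Cpr7, in every series.

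HSP82 footprints rose 9.17-fold within 30 min of auxin. In CPM, the number of a gene's footprints per 1e6 footprints in listed genes, the inputs of the Sec63 series with cycloheximide held 1054 at 0 min, 3598 at 15 min, 10781 at 30 min and 14309 at 60 min. The Ubc6 series held 1558, 2477, 9436 and 13845 CPM at the same times. The Sec63 series without cycloheximide held 1491, 11026 and 16498 CPM at 0, 30 and 60 min, the Tom20 series 1162 and 13058 at 0 and 30 min, and the Om45 series 1205 and 9248. The groups did not overlap: the highest input without auxin lay below both inputs at 15 min, which lay below every input at 30 min, and those at 60 min were above all at 30 min. HSP82 changed by 3.20 ± 0.16 log2 units (SE, n = 5) after 30 min, with an edgeR adjusted p of 3.84e-08, and the 17th largest of 5286 genes. After 60 min the change was 3.42 ± 0.18 (n = 3, 10.7-fold, edgeR adjusted p = 5.7e-08).

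HSC82, the gene with the higher starting level, also rose, but by a smaller factor. Its inputs held 5062, 7297, 11429 and 14607 CPM at 0, 15, 30 and 60 min in the Sec63 series with cycloheximide, and 4531, 5210.2, 9222 and 11529 in the Ubc6 series. The Sec63 series without cycloheximide held 5909, 10731 and 14204 CPM, the Tom20 series 5193 and 12524, and the Om45 series 5222 and 9700.2. All inputs at 30 and 60 min were above all at 0 min, while the Ubc6 input at 15 min lay within the range at 0 min. HSC82 changed by 1.20 ± 0.09 log2 units after 30 min (2.29-fold, n = 5, edgeR adjusted p = 1.07e-06) and by 1.31 ± 0.11 after 60 min (2.48-fold, n = 3, edgeR adjusted p = 1.05e-06).

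**Figure D1:**
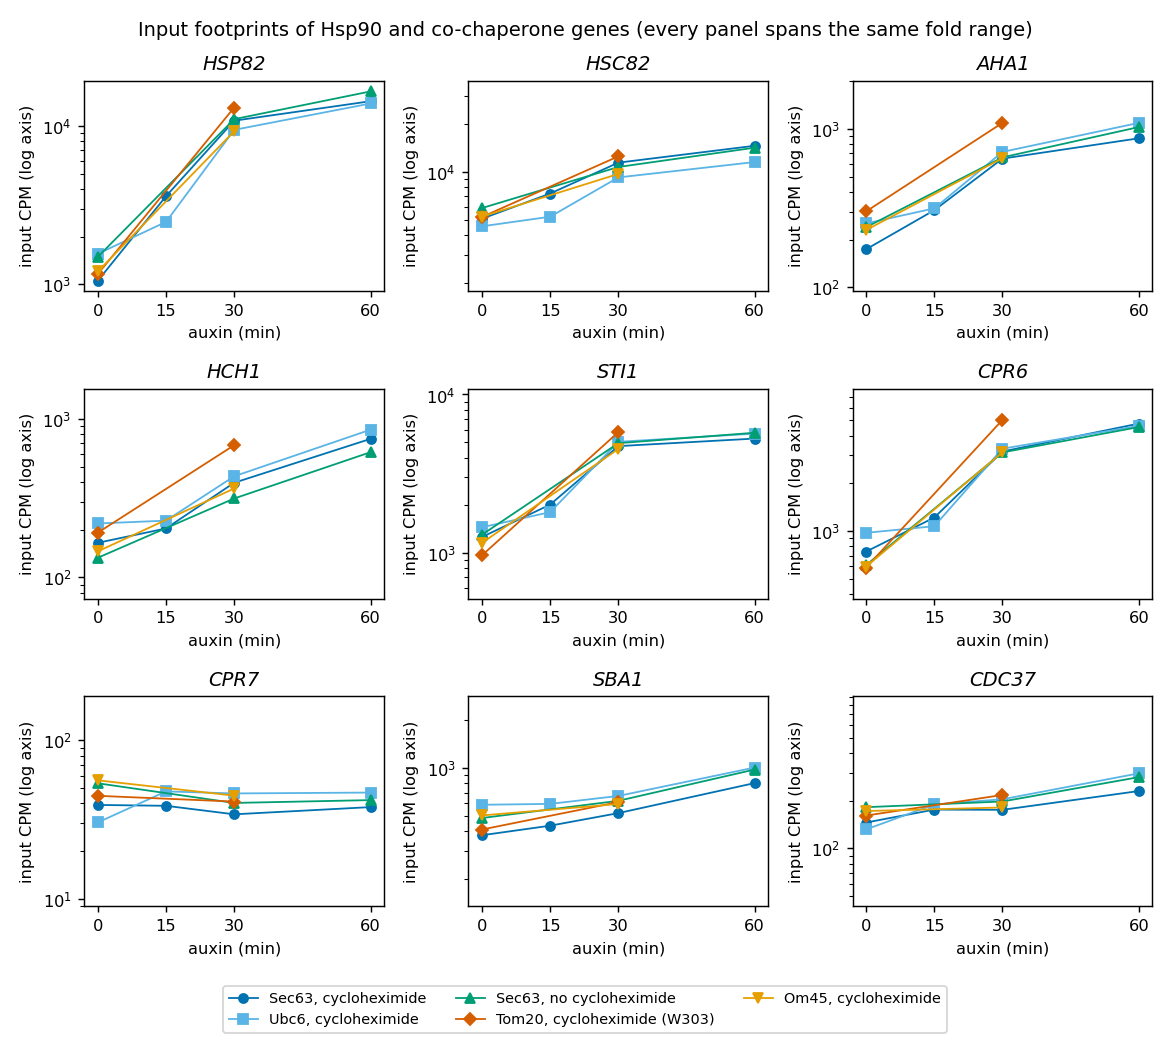
Input footprints of the 9 genes in CPM (log axis) against minutes of auxin, 1 point per library and 1 line per series, with every panel spanning the same fold range. HSP82 climbs from 1054 to 1558 CPM at 0 min to 9248 to 13058 at 30 min, whereas CPR7 stays between 30.4 and 56.0 CPM in all 15 inputs.

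The mix of Hsp90 messages being translated therefore moved from mostly HSC82 towards an even share. Of the summed HSP82 and HSC82 footprints in inputs at 0 min, HSP82 made up 17.2% (Sec63 with cycloheximide), 25.6% (Ubc6), 20.1% (Sec63 without cycloheximide), 18.3% (Tom20) and 18.8% (Om45). At 15 min its share was 33.0% in the Sec63 and 32.2% in the Ubc6 series. At 30 min it was 48.5%, 50.6%, 50.7%, 51.0% and 48.8% in the same order of series, and at 60 min 49.5%, 54.6% and 53.7%. The 5 shares at 30 min spanned a narrow range around an even split, and none overlapped those at 0 or 15 min. The log2 ratio of HSP82 to HSC82 counts rose by 2.01 ± 0.26 (SD, n = 5; 1.57 to 2.22) over 30 min, upward in 5 of 5 series (exact sign-flip permutation test, two-sided, p = 0.0625, the smallest p that 5 series allow). Over 60 min it rose by 2.08 ± 0.24 (SD, n = 3; exact p = 0.25, the smallest that 3 series allow), so this test cannot reach 0.05 for the ratio.

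Pulldowns gave nearly the same mix. The share of HSP82 in a pulldown differed from that in its input by at most 3.34 percentage points in 14 of 15 pairs. The exception was the Ubc6 pair at 0 min, with 33.2% in the pulldown and 25.6% in the input. Both lay above the other series at 0 min, which had 19.0% to 20.6% in pulldowns and 17.2% to 20.1% in inputs. The Ubc6 input was the smallest library, with 3182 HSP82 counts, and whether depth plays a part was not tested.

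**Figure D2:**
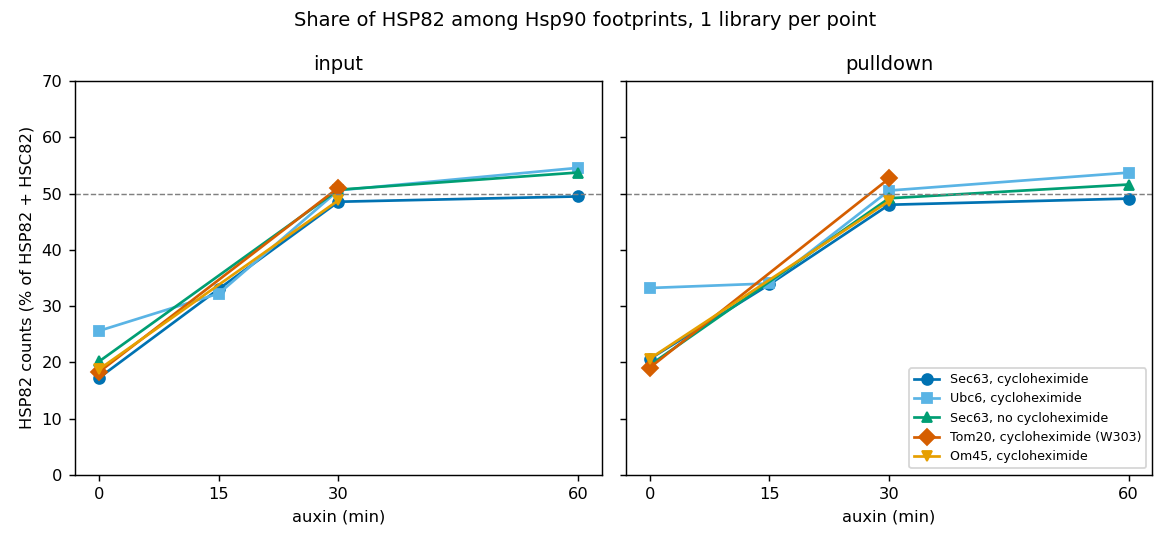
Share of HSP82 among all HSP82 and HSC82 counts (percent) against minutes of auxin in inputs (left) and pulldowns (right), 1 point per library, with a dashed line at an even split. Input shares run from 17.2% to 25.6% at 0 min and from 48.5% to 51.0% at 30 min.

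Added together, the Hsp90 genes took up a growing part of all listed footprints. Their summed input footprints were 0.612%, 0.609%, 0.740%, 0.635% and 0.643% of all listed footprints at 0 min in the order of series above. At 15 min they were 1.09% in the Sec63 and 0.769% in the Ubc6 series. At 30 min they were 2.22%, 1.87%, 2.18%, 2.56% and 1.89%, and at 60 min 2.89%, 2.54% and 3.07%. Every share at a later time lay above all 5 at 0 min, and the lowest of them was that of the Ubc6 input at 15 min. Counted as 1 gene, which sets the uncertain split aside, Hsp90 rose by 0.61 ± 0.15 log2 units after 15 min (edgeR adjusted p = 0.0178), 1.87 ± 0.11 after 30 min (edgeR adjusted p = 9.97e-08) and 2.04 ± 0.13 after 60 min (edgeR adjusted p = 1.29e-07).

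Among all 9 genes, 8 rose after 30 min and none fell, where 21.8% of the 5286 genes tested rose and 23.9% fell. CPR7 was the member not called. The median change of the 9 genes was 1.48 log2 units, beside 0.025 over all genes. After 60 min, against the same 0 min inputs, 8 of 9 rose with CPR7 not called, a median of 2.05, where 30.6% of all genes rose and 28.2% fell. Scaling by library totals in place of TMM moved the median of all genes at 30 min to -0.13 and the calls from 1150 higher and 1265 lower to 644 and 1779, and it left the same number of members called.

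CPR6 and STI1 came next after HSP82 in the size of their rise over 30 min. STI1, the Hsp70 to Hsp90 adaptor, had inputs of 1260.2, 1451, 1303, 966 and 1157 CPM at 0 min and 4719.9, 5024, 4927, 5784 and 4528 at 30 min, with series in the order given above. The lowest input at 30 min lay far above the highest at 0 min. STI1 rose by 2.18 ± 0.12 log2 units (SE, n = 5, 4.55-fold, edgeR adjusted p = 6.74e-08). CPR6, the more highly translated of the cyclophilins, had 741, 974, 609, 588 and 596 CPM at 0 min and 3175, 3308, 3134, 5028 and 3138 at 30 min. The Tom20 input, from the W303 strain, was high at 30 min, and the other 4 series lay between 3134 and 3308. CPR6 rose by 2.49 ± 0.16 (5.61-fold, edgeR adjusted p = 2.57e-07).

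The activators of the Hsp90 ATPase followed. AHA1 had 174, 253, 239.8, 302 and 230.2 CPM at 0 min and 649.7, 716, 662, 1092 and 654 at 30 min, with no overlap and again the highest value in the Tom20 series. It rose by 1.80 ± 0.10 log2 units (3.48-fold, edgeR adjusted p = 5.83e-08). HCH1 had 165, 219, 133, 192 and 146 CPM at 0 min and 396, 435, 315, 683 and 364 at 30 min, and it rose by 1.48 ± 0.11 (2.80-fold, edgeR adjusted p = 4.95e-07). The p23 gene SBA1 and the kinase-specific CDC37 moved least among the called members. SBA1 had 377, 586, 484, 409 and 502 CPM at 0 min and 519, 667, 621, 609.7 and 593 at 30 min, ranges that overlapped although each series rose. It rose by 0.52 ± 0.08 (1.43-fold, edgeR adjusted p = 0.000219). CDC37 had 146, 132, 182, 161 and 172 CPM at 0 min and 175, 204, 198, 217 and 181 at 30 min, also with overlap between groups, and it rose by 0.45 ± 0.10 (1.36-fold, edgeR adjusted p = 0.00248).

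CPR7 had no detectable rise. Its inputs held 39.1, 30.4, 53.6, 44.7 and 56.0 CPM at 0 min, 34.2, 46.3, 40.3, 41.1 and 44.8 at 30 min, and 37.9, 46.9 and 42.0 at 60 min. The Ubc6 series went up by 0.76 log2 units over 30 min and the other 4 series had values from -0.21 to -0.01. The Ubc6 value at 0 min rests on 62 footprints, with an exact Poisson 95% interval of 23.3 to 38.9 CPM that covers counting error only. The fitted change was 0.02 ± 0.12 after 30 min (edgeR adjusted p = 0.931) and -0.12 ± 0.15 after 60 min (edgeR adjusted p = 0.512). Without the Ubc6 series it was -0.11 ± 0.08 (edgeR adjusted p = 0.324) and -0.28 ± 0.11 (edgeR adjusted p = 0.0647). Cpr6 and Cpr7, which belong to the same cyclophilin class, thus had changes of 2.49 and 0.02 in the same inputs, with no overlap between them within any series (CPR6 1.92 to 3.21, CPR7 -0.21 to 0.76).

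**Figure D3:**
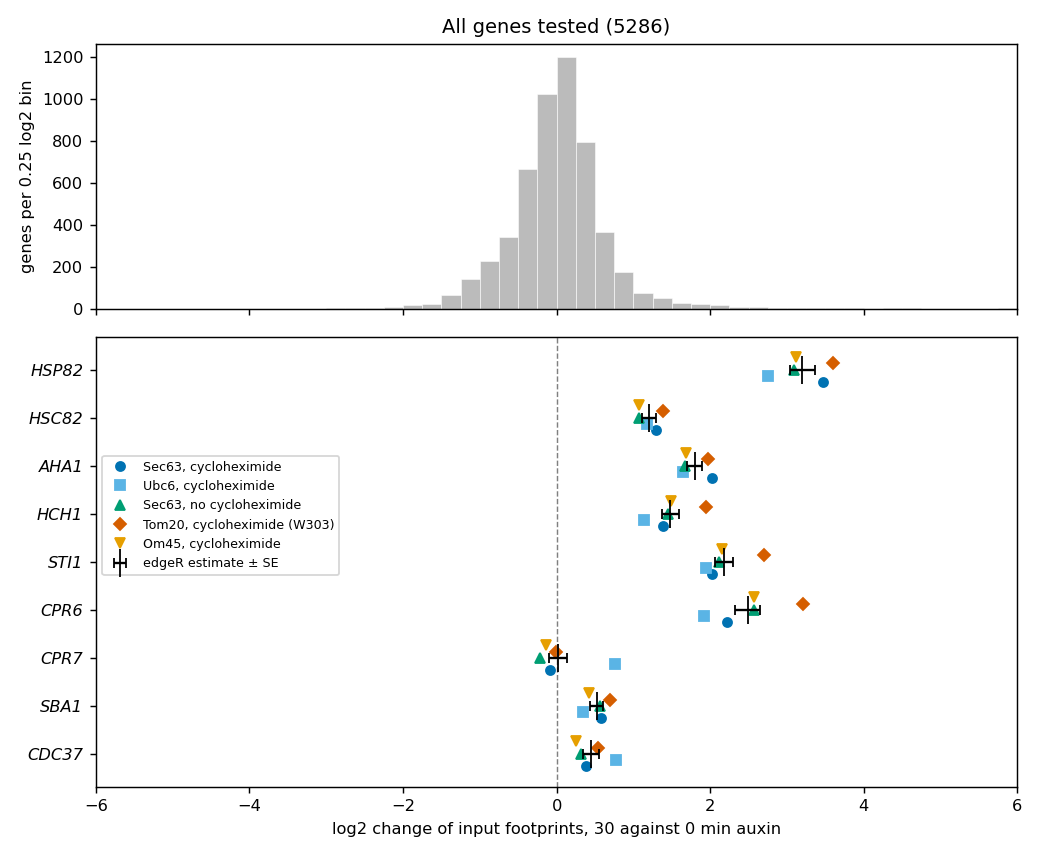
Log2 change of input footprints from 0 to 30 min of auxin, as a histogram of all 5286 genes tested (above) and for the 9 genes (below), with 1 symbol per series and the edgeR estimate ± SE in black. HSP82 lies at 3.20 and CPR7 at 0.02, and the Tom20 symbol is the rightmost for every called member except AHA1 and CDC37.

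After 15 min, a time taken only with the Sec63 and Ubc6 baits under cycloheximide, 3 of 9 members had risen, where 5.24% of all genes had. They were HSP82 (1.31 ± 0.20 log2 units, edgeR adjusted p = 0.00153), AHA1 (0.58 ± 0.13, edgeR adjusted p = 0.0131) and STI1 (0.64 ± 0.16, edgeR adjusted p = 0.0219). CPR6 at 0.68 ± 0.22 (edgeR adjusted p = 0.0531) and HSC82 at 0.37 ± 0.13 (edgeR adjusted p = 0.0804) missed the threshold. The fit draws the baseline of a series from its inputs at every time. Fitted values therefore need not equal the mean of the changes from 0 min in the 2 series. For HSP82, HSC82, AHA1, HCH1, STI1, CPR6 and SBA1 the Sec63 series had gone further than the Ubc6 series by then. HSP82 was up by 1.80 against 0.67 log2 units and CPR6 by 0.75 against 0.14. CPR7 (0.01 against 0.65) and CDC37 (0.30 against 0.52) went the other way. With n = 2 these calls are thin: without the Sec63 series with cycloheximide none of the 3 was called (HSP82 0.89, edgeR adjusted p = 0.114), and without the Ubc6 series only HSP82 was.

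From 30 to 60 min, HCH1 and SBA1 rose further, and the other 7 members did not pass the test. HCH1 went from 396, 435 and 315 CPM at 30 min to 748, 856 and 617 at 60 min in the Sec63, Ubc6 and Sec63 without cycloheximide series, a rise of 0.64 ± 0.13 log2 units (n = 3, edgeR adjusted p = 0.00302). SBA1 went from 519, 667 and 621 to 804, 1007 and 978 CPM, a rise of 0.38 ± 0.10 (edgeR adjusted p = 0.0138). All 3 series moved up for both genes. STI1 had a change of -0.14 ± 0.14 (edgeR adjusted p = 0.525) over the same interval and HSP82 one of 0.22 ± 0.18 (edgeR adjusted p = 0.388). The 2 calls of 9 stand beside 10.9% of all genes called higher. Scaling by library totals moves the median of all genes to 0.29 and calls 6 members, and all-gene calls go from 574 higher and 767 lower to 1797 and 482. HCH1 was not called without the Sec63 series lacking cycloheximide (0.55, edgeR adjusted p = 0.0623), and SBA1 was not called without any 1 of the 3 series that have 60 min (0.31 to 0.39).

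Set against Hsp90 itself, the co-chaperones changed their proportions while the range of their sum overlapped at every time. Per length, the 7 co-chaperone genes together had 71.9% of the summed RPKM of HSP82 and HSC82 at 0 min (63.6% to 97.8%, n = 5), 72.2% at 30 min (62.2% to 80.5%) and 67.0% at 60 min (64.4% to 82.5%, n = 3). CPR6 went from a median of 14.5% (12.8% to 24.9%) to 25.9% (22.3% to 30.7%) and STI1 from 17.7% (14.9% to 23.4%) to 22.3% (20.9% to 26.5%) over 30 min, with overlapping ranges but upward in 5 of 5 series for each. HCH1 had 10.2% (6.79% to 13.6%) and 7.27% (5.48% to 10.1%), also overlapping, and went down in 5 of 5 series. AHA1 had 5.92% (4.70% to 7.84%) and 5.71% (4.84% to 7.07%), down in 4 series and up in 1, and the sum of all 7 went up in 3 series and down in 2. SBA1, CDC37 and CPR7 went down relative to Hsp90 in every series, with no overlap between groups. Their own footprints did not fall in the fit after 30 min (0.52, 0.45 and 0.02 log2 units). Hsp90 counted as 1 gene rose by 1.87, so these lower percentages restate changes given above. SBA1 had 17.5% (16.5% to 25.8%) and then 7.66% (6.27% to 9.58%), CDC37 had 2.81% (2.47% to 3.06%) and then 1.04% (0.903% to 1.25%), and CPR7 had 1.03% (0.734% to 1.28%) and then 0.273% (0.227% to 0.366%). These percentages are descriptions with no test, and they inherit the shortened length behind the RPKM of both Hsp90 genes.

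**Figure D4:**
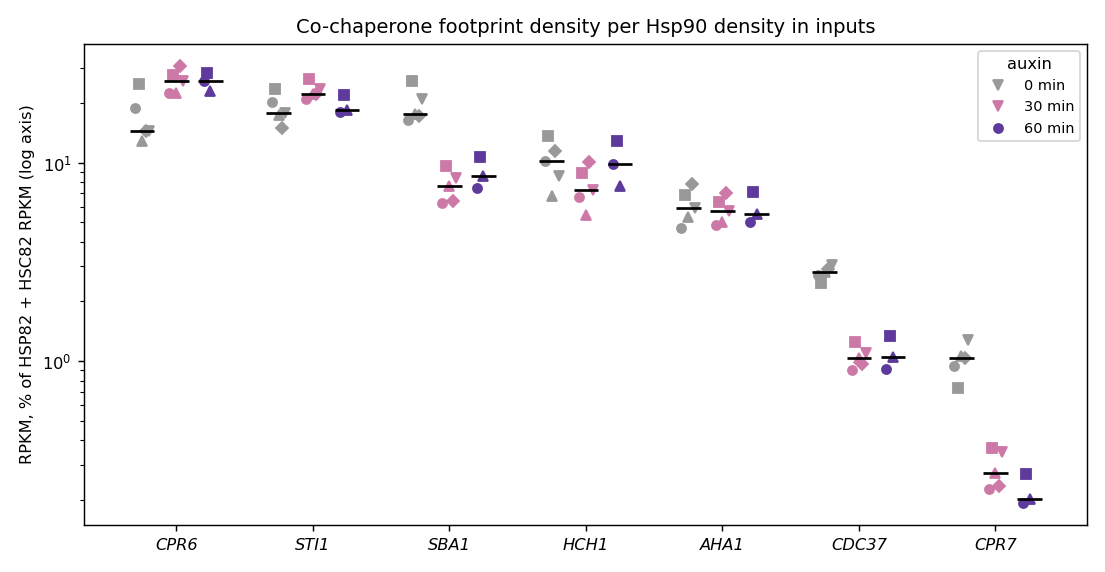
RPKM of each co-chaperone gene as a percentage of the summed HSP82 and HSC82 RPKM in the same input (log axis) at 0, 30 and 60 min of auxin, 1 symbol per series (shapes as in the plot of input CPM) and a bar at the median. SBA1, CDC37 and CPR7 lie lower at 30 min than at 0 min without overlap, and CPR6 has the highest median at 30 min, 25.9%.

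By footprint density the order at 30 min had HSC82 (median 6131 RPKM) and HSP82 (6082) level, with HSC82 higher in 2 of 5 series. CPR6 (2786) and STI1 (2628) came next, then SBA1 (918) and HCH1 (848), which exchanged places between series, AHA1 (623), CDC37 (123) and CPR7 (34.0).

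Members followed each other closely over the 15 inputs, with the exceptions of CPR7 and, in part, CDC37. With log2 CPM centred within each series, HSC82 correlated with HSP82 at r = 0.995, AHA1 at 0.994, STI1 and CPR6 at 0.990, HCH1 at 0.963, SBA1 at 0.930, CDC37 at 0.868 and CPR7 at -0.06. Of 5073 genes averaging 100 or more counts per input, the 5 most like HSP82 were SSA1 (0.996), HSC82, BSC5 (0.995), SSE2 (0.995) and AHA1. Those most like HSC82 were AHA1 (0.998), SSA1 (0.996), HSP82, RAD59 (0.990) and STI1 (0.989). These values describe 15 libraries that share the auxin time course and, within a series, a library preparation, and SSA1 footprints may include those of its near-identical copy.

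Of 5 further co-chaperone genes (CNS1, PPT1, SGT1, TAH1 and PIH1), 0 rose and 1 fell after 30 min, with a list median of -0.10 log2 units, beside the 21.8% of all genes that rose and the 23.9% that fell. PPT1, the Hsp90-directed protein phosphatase, fell by 0.94 ± 0.11, a value of -0.94 (edgeR adjusted p = 1.99e-05). After 60 min 1 rose and 3 fell, beside 30.6% and 28.2% of all genes: SGT1 changed by 0.43 ± 0.15 (edgeR adjusted p = 0.0221), PPT1 by -1.86 ± 0.14 (edgeR adjusted p = 3.98e-07), CNS1 by -0.59 ± 0.15 (edgeR adjusted p = 0.00522) and TAH1 by -0.44 ± 0.17 (edgeR adjusted p = 0.0436). CNS1 encodes, like CPR7, a tetratricopeptide-repeat partner of Hsp90. After 15 min, a time with 2 series, it was called lower at -0.76 ± 0.18 (edgeR adjusted p = 0.0163), where 448 of 5286 genes were. After 30 min CNS1 was not called (-0.23 ± 0.12, edgeR adjusted p = 0.137). Of 7 genes of known Hsp90 clients, 2 rose and 4 fell after 30 min (median -0.42). STE11, the kinase of the mating pathway, changed by 0.62 ± 0.12 (edgeR adjusted p = 0.000939), the cell-cycle kinase SWE1 by -0.71 ± 0.10 (edgeR adjusted p = 0.000105) and GCN2, which phosphorylates eIF2, by -0.48 ± 0.09 (edgeR adjusted p = 0.000964). After 60 min 3 clients rose and 2 fell, among them SLT2, the kinase of the cell-wall integrity pathway, at 1.14 ± 0.13 (edgeR adjusted p = 1.03e-05).

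Other chaperone genes known as Hsf1 targets rose with the members. All 20 of them were called higher after 30 min (median 2.68 log2 units) and after 60 min (2.84), and 10 of 20 after 15 min (0.87). Of all genes, 5.24%, 21.8% and 30.6% were called higher after 15, 30 and 60 min. The lists compared here were chosen with earlier results of these data known. SIS1, the Hsp40 partner of Hsp70, rose by 2.81 ± 0.13 (edgeR adjusted p = 1.64e-08) and HSP78, the mitochondrial disaggregase, by 3.46 ± 0.15 (edgeR adjusted p = 1.64e-08), so HSP82 at 3.20 lay between them and HSC82 at 1.20 lay below both. Of 14 general stress genes of the Msn2 and Msn4 regulon, 7, 10 and 12 rose after 15, 30 and 60 min, with medians of 1.04, 0.82 and 1.53. Their median over 30 min varied by series, from -0.02 in the Om45 series to 1.55 in the Sec63 series without cycloheximide. The members' medians were 1.49 and 1.45 there, and ran from 1.18 to 1.95 over the 5 series. All 10 ribosome biogenesis genes fell after 30 min (median -1.16) and after 60 min (-2.37), where 23.9% and 28.2% of all genes fell. Of 31 reference cytosolic genes tested, 7 rose and 15 fell after 30 min (median -0.22), and 4 rose and 25 fell after 60 min (median -0.92). From 30 to 60 min 0 of these rose and 26 fell (median -0.64), where 574 of 5286 genes rose and 767 fell. The share of reference genes that rose after 30 min was near that of all genes.

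Cycloheximide was compared over the 6 inputs of the Sec63 series with and without it, matched at 0, 30 and 60 min. These are single series that also differed in the biotin pulse (2 min with cycloheximide, 1 min without). The drug therefore cannot be told apart from other differences between them. None of the 9 members was called, and 0.322% of 5278 genes were (17 genes by edgeR, 1389 at an unadjusted p below 0.05). HCH1 had the largest difference among the members, 0.33 ± 0.11 log2 units with cycloheximide over without (edgeR adjusted p = 0.131), followed by SBA1 at -0.28 ± 0.11 (edgeR adjusted p = 0.165). HSP82 had -0.22 ± 0.13 (edgeR adjusted p = 0.315). With 2 residual degrees of freedom, differences of this size were not detectable.

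In pulldowns, HSC82, AHA1, STI1 and CDC37 lay below the median gene of the pair in 15 of 15 pairs and HSP82 in 14, whereas HCH1 did so in 9 and CPR7 in 6. AHA1 was often close to the median gene: in its median pair 40.1% of genes were lower, against 16.6% for HSC82, 19.4% for STI1 and 9.91% for CDC37. The median gene itself ran from -0.45 to 0.15 log2 units over the pairs, and the median of the 31 reference cytosolic genes from -0.93 to 0.09. That reference median also lay below the median gene in every pair. It was -0.93 against -0.45 for Sec63 with cycloheximide at 0 min, and -0.51 against -0.17 for Om45 at 30 min. A place below the median gene was thus not particular to the members. On the TMM scale the log2 ratio of pulldown to input was below 0 in all 15 pairs for HSP82 (-0.84 to -0.06, median -0.55), HSC82 (-1.16 to -0.14, median -0.59) and CDC37 (-1.36 to -0.06, median -0.60). It was below 0 in 14 pairs for AHA1 (median -0.32) and STI1 (-0.51), 13 for CPR6 (-0.48), 12 for HCH1 (-0.20) and SBA1 (-0.39) and 11 for CPR7 (-0.25). The lowest standing of any member was that of STI1 at Om45, with -0.85 at 0 min and -0.91 at 30 min, where 0.927% and 0.265% of genes were lower. Most values above 0 came from the Sec63 series without cycloheximide, in which HCH1 had 0.18, 0.22 and 0.34 at 0, 30 and 60 min. Scaling by library totals lowers every pair's ratios further, by 0.17 (Om45, 0 min) to 1.24 (Sec63 with cycloheximide, 0 min), shifts of -0.17 to -1.24.

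No preference of a member for either organelle was detectable before auxin. Between 3 ER and 2 mitochondrial pairs at 0 min, 0 of 9 were called, where 20.4% of 5250 genes were. The all-gene calls were 499 higher and 571 lower at ER baits, and they became 8 and 460 without the Ubc6 series, 0 and 220 without Tom20, 8 and 309 without Om45, and 128 and 473 when centred on the reference cytosolic genes. The members' differences ran from -0.12 (CPR7) to 0.11 (HSP82 and HCH1) with SEs of 0.27 to 0.37, and the lowest edgeR adjusted p was 0.903. The 6 ER markers had a median difference of 3.65 and the 6 mitochondrial markers one of -4.34, all called. With 3 residual degrees of freedom, differences of the members' size were not detectable here.

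**Figure D5:**
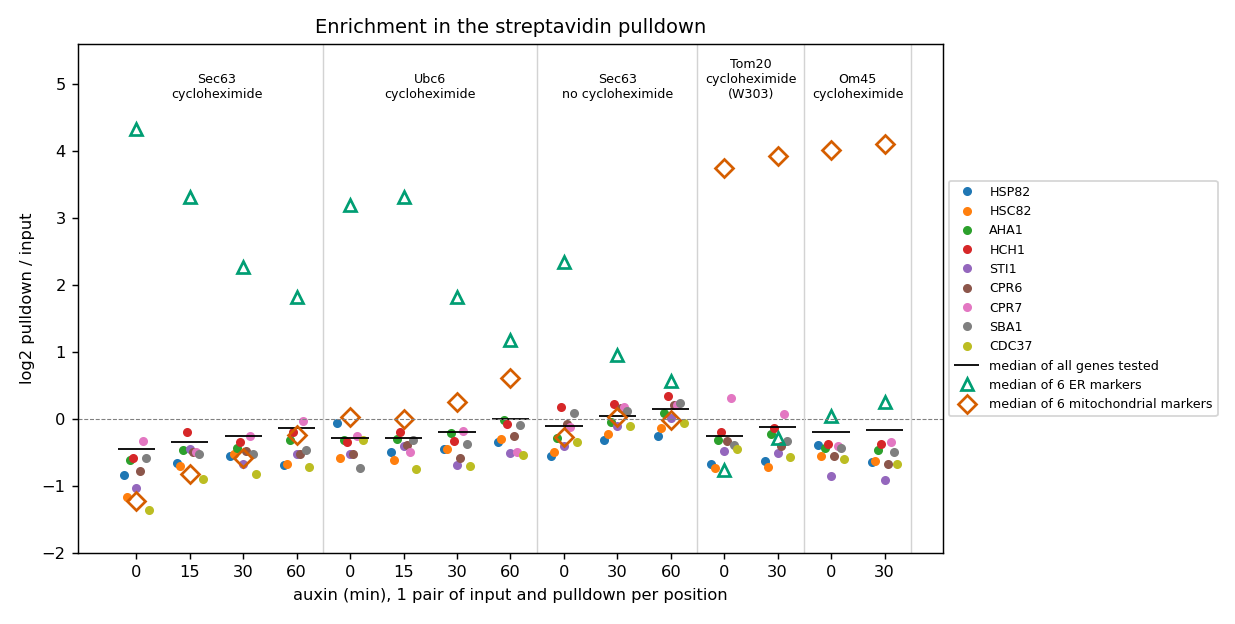
Log2 pulldown over input (TMM scale) for the 9 genes in each of 15 pairs, by series and minutes of auxin, with the median of all genes tested (bar) and the medians of 6 ER and 6 mitochondrial marker genes (open symbols). Members lie between -1.36 and 0.34, while the ER markers reach 4.33 at an ER bait and the mitochondrial markers 4.11 at a mitochondrial bait.

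No shift of HSP82 footprints to or from the ER was detectable while their number rose. The ER enrichment of HSP82 changed by 0.04 ± 0.14 log2 units after 30 min (n = 3, edgeR adjusted p = 0.87) and 0.05 ± 0.14 after 60 min (edgeR adjusted p = 0.797). It went up in both Sec63 series (0.29 and 0.23 after 30 min) and down in the Ubc6 series (-0.39). After 30 min 0 of 9 members were called, where 20.3% of all genes were, and HSC82 came closest at 0.34 ± 0.12 (edgeR adjusted p = 0.057). After 15 min 0 of 9 were called, as were 0 of 5286 genes by edgeR, with 886 genes at an unadjusted p below 0.05 and 65 genes called higher and 81 lower by DESeq2. At mitochondrial baits 0 of 9 changed after 30 min, where 1.04% of all genes did, with values from -0.11 (HSP82) to 0.04 (HCH1).

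After 60 min HSC82 (0.38 ± 0.12, edgeR adjusted p = 0.0269) and AHA1 (0.33 ± 0.10, edgeR adjusted p = 0.0246) were called higher at ER baits, 2 of 9, where 23.1% of all genes were called higher and the median gene had 0.289. In the Sec63 with cycloheximide, Ubc6 and Sec63 without cycloheximide series, HSC82 rose by 0.49, 0.29 and 0.35 and AHA1 by 0.30, 0.30 and 0.38. Of the 31 reference cytosolic genes 18 were called higher too, with a median of 0.32, and centring on them left HSC82 at 0.03 and AHA1 at -0.02, with neither called and all-gene calls of 191 higher and 735 lower in place of 1221 and 649. Neither was called without any 1 series, and both turned slightly negative without the Sec63 series with cycloheximide (HSC82 -0.05, AHA1 -0.02), as did AHA1 without the Tom20 series (-0.01). In those fits the median gene moved as well, from 0.289 to -0.08 and -0.04. Over all genes, library totals move the median change at 30 min from 0.149 to 0.46 and the calls from 468 higher and 607 lower to 1603 and 550, and HSC82 (0.66, edgeR adjusted p = 0.0173) and AHA1 (0.50, edgeR adjusted p = 0.0393) are then called at 30 min.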

How the data were processed

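Ribosome footprints were measured in 30 libraries, 15 pairs of input and pulldown in 5 series grouped by the labels. The deposited tables give, per the file headers, a footprint count and an RPKM value for each of 5890 genes and each library. Per the submitters' processing notes, CASAVA, Bowtie 1.1.2, TopHat2 2.1.1 and the build sacCer3 were used. How footprints were counted (strand, multiple matches, molecular identifiers) is not given in the sources used here. Per the labels, the Ubc6 series lacked the barcoded linker of the others. A RefSeq table (R64) named 5887 genes. It holds no sequences, so none are printed.

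From the deposited counts, genes averaging at least 20 counts over the inputs entered quasi-likelihood fits (R 4.3.3, edgeR 4.0.16; TMM scaling, 2-sided, Benjamini-Hochberg over all genes, threshold 0.05). Inputs used series as a block (15 libraries, 7 residual degrees of freedom). Enrichment used pairs as a block (30 libraries, 6, and at 0 min 10 libraries, 3). The cycloheximide comparison used 6 libraries (2). P-values measure consistency over series (for cycloheximide, over matched times), not over replicate cultures. Values by series are log2 CPM differences after TMM with a prior count of 1. CPM uses the total of listed genes, and RPKM from the deposited tables served levels per length. On simulated counts the input test recovered 100 of 100 changes of 1 log2 unit after 30 min with 3 false calls among 5286 genes, and the ER enrichment test 74 of 100 with 14. The test of ER against mitochondrial baits at 0 min recovered 62 of 100 with 5 false calls among 5250 genes. Every simulated gene had the same spread, with no series or pair effects, so recovery in the real libraries can be lower.

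The 9 members and the other gene lists were chosen with earlier results of these data known. All members are named in every comparison. Of each other list at most 4 genes with the smallest p in a comparison are named, with the 5 genes most correlated with HSP82 and with HSC82. Alternatives were library totals, DESeq2 1.42.0, no count filter, HSP82 and HSC82 merged, centring on reference cytosolic genes (enrichment) and leaving out each series.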

Additional observations from a re-analysis of the deposited data

Results flagged for a closer look

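STI1 rose by 2.70 log2 units after 30 min in the Tom20 series, the W303 strain, while the other 4 series had 1.94 to 2.15, so 1 of 5 series stood apart. CPR7 rose by 0.76 in the Ubc6 series, while the other 4 had -0.21 to -0.01. That value starts from the smallest input, with 62 CPR7 footprints at 0 min. Both were found by setting the gap of the highest or lowest series against the range of all 5, in 19 such tests, and chance flags about 1 in 20. Whether the strain or the depth plays a part was not tested.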

How the results depend on the processing

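The 8 members called higher in inputs after 30 and 60 min kept direction and call under the 8 alternatives that keep HSP82 and HSC82 apart (HSP82 3.04 to 3.32 after 30 min). CPR7 was called in none of these and turned direction, from -0.14 to 0.08 after 30 min. The change of the HSP82 to HSC82 ratio ran from 1.96 to 2.12 over left-out series. After 15 min, DESeq2 called 5 members in place of 3, and leaving out a series gave 0 to 4. From 30 to 60 min, library totals called 6 in place of 2, and leaving out a series gave 0 to 2. For ER enrichment after 30 min, library totals called 2 in place of 0. After 60 min, in place of 2, DESeq2 called 0, no filter 0, merged Hsp90 genes 1, reference centring 0 and every left-out series 0. There AHA1 turned to -0.02 under reference centring, and over left-out series HSC82 ran from -0.05 to 0.39 and AHA1 from -0.02 to 0.30, with -0.01 without the Tom20 series. Of 100 counts or ratios of comparisons 83 stayed within their limits, and of single-member values 782 kept direction and call. The causes were not tested. A left-out fit has fewer series, and its scale can move too. For ER enrichment after 60 min the median of all genes was 0.289. It was -0.04 without the Tom20 series, -0.08 without the Sec63 series with cycloheximide and 0.28 without the Sec63 series lacking it. Total genes called moved by more than 1.5 times as follows, with lowest and highest over left-out series or, for cycloheximide, left-out times. Input calls after 15 min were 725 (81 to 769). From 30 to 60 min they were 1341 (714 to 1532), and 2279 with library totals. For cycloheximide they were 17 (0 to 365), 68 with library totals (45 higher, 23 lower), 421 with DESeq2 and 67 with no filter. Between ER and mitochondrial baits at 0 min they were 1070 (220 to 1439), and 601 with reference centring. ER enrichment calls were 0 after 15 min (0 to 324), 62 with library totals and 146 with DESeq2. After 30 min they were 1075 (515 to 1083), and 2153 with library totals, while reference centring gave 164 higher and 659 lower in place of 468 and 607. After 60 min they were 1870 (628 to 1656), 1104 with DESeq2, 1179 with no filter and 926 with reference centring. Mitochondrial calls after 30 min were 55 (0 to 47, the 0 without Tom20), 87 with library totals and 141 with DESeq2. The input totals after 30 and 60 min stayed within 1.5 times. No paired analysis was possible because the labels carry no replicate numbers to pair by, beyond the series and the input and pulldown pairs that the reported fits already block on. Depth limits CPR7 most, at 62 counts in the smallest input.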
